A study of Danio rerio with 3 samples.

Results

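Tetraspanins and Cd99 are small membrane proteins of the cell surface and of endosomes, and their transcripts were examined in muLECs, the mural lymphatic endothelial cells of the zebrafish brain. The genes were taken by name from the deposited count table: cd99, every row whose symbol begins with tspan, and the rows for cd9, cd37, cd53, cd63, cd81, cd82, cd151 and cd99l2 with or without a final a or b. This gave 41 of the 32105 rows, with 39 tetraspanin rows and 2 rows of the Cd99 family, and no row carried the symbol cd53. The cells came from adult wildtype zebrafish of a line in which a lyve1 reporter makes cells fluoresce with DsRed, a red protein. Brains were dissociated with the enzyme blend Liberase, DsRed-positive cells were sorted, and their RNA was amplified and sequenced as 3 libraries, each made from 6 pooled brains. The libraries form 1 group with no other cell population beside it, so levels are described within the sorted cells, and what sets these cells apart from others was not tested.

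Tetraspanins cross the membrane several times, carry a conserved cysteine motif in their large outer loop and gather integrins, immunoglobulin-domain proteins and proteases into membrane microdomains. Some, such as Cd63, mostly sit in late endosomes and lysosomes and are found on exosomes. Others escort the protease Adam10, which cleaves Notch and cadherins, to the cell surface. CD99 is an unrelated single-pass protein that in humans lies at endothelial cell contacts and on leukocytes, and takes part in the passage of leukocytes through the vessel wall.

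The libraries held 36044297, 35168650 and 34307745 reads in replicates 1, 2 and 3, and 7472, 6117 and 9739 genes reached 10 reads in them. Levels are given as CPM, reads scaled to library size, after adjusting the sizes with TMM factors of 1.05, 0.796 and 1.199. They are not divided by gene length, so the order of genes by CPM is an order of reads and not of transcript numbers. Amplified reads are not independent molecules, and the floor of 3 reads, at 0.0794, 0.107 and 0.0729 CPM, covers counting error alone. Whether the replicates were sorted on separate days is not stated, so the spread between them may be partly technical. In RNA of pooled cells, fewer cells with a transcript and fewer copies per cell cannot be told apart.

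Of the 41 genes, 21 reached at least 10 reads in at least 2 libraries, 14 of them in all 3 libraries, and these 21 were tested. That is 51.2%, beside 25.8% of all rows with a symbol. A further 7 genes reached 10 reads in 1 library, and 13 never did, of which 7 had 0 reads in every library. The edgeR quasi-likelihood test asked whether a gene's reads stood above or below those of the median tested gene, whose level was 12.6, 11.7 and 12.7 CPM in the 3 libraries. It placed 11 of the 21 above the median gene and 0 below it (0 at an unadjusted p under 0.05, 0 by DESeq2 and 2 by limma-trend), and 10 did not pass. Among all 7111 tested genes, 23.4% stood above and 1.21% below. The median log2 ratio to the median gene was 1.79 over the 21 genes and 0.22 over all tested genes. The genes were listed with earlier results of these data known, so these shares describe the list and do not test it. The standard error (SE) given with a log2 ratio came from the fitted model. Its dispersion, the variance beyond counting error, followed a trend over tested genes of similar level. The SE also scales with a factor for the gene's own spread between the 3 libraries, drawn toward that of other tested genes. It is therefore not the gene's own spread alone.

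**Figure D1:**
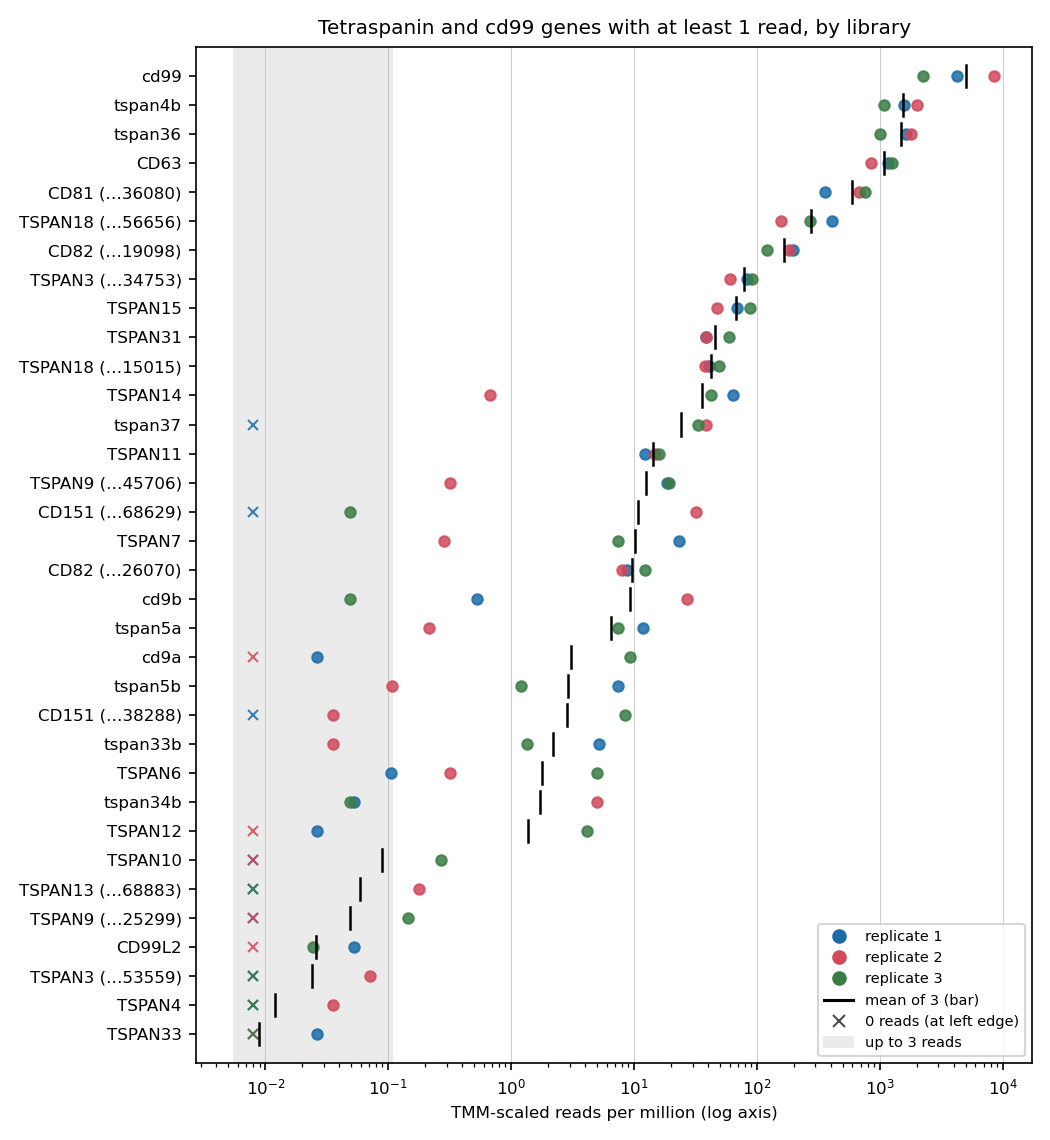
TMM-scaled CPM on a log axis for the 34 tetraspanin and cd99 genes with at least 1 read, one row per gene, with a point per library, a bar at the mean of the 3 libraries and crosses for libraries with 0 reads (the last digits of the gene ID are given where genes share a symbol). The points of the upper genes lie close together except for cd99, which ran from 2249 to 8519 CPM, while many lower genes have 1 library far from the others.

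**Figure D2:**
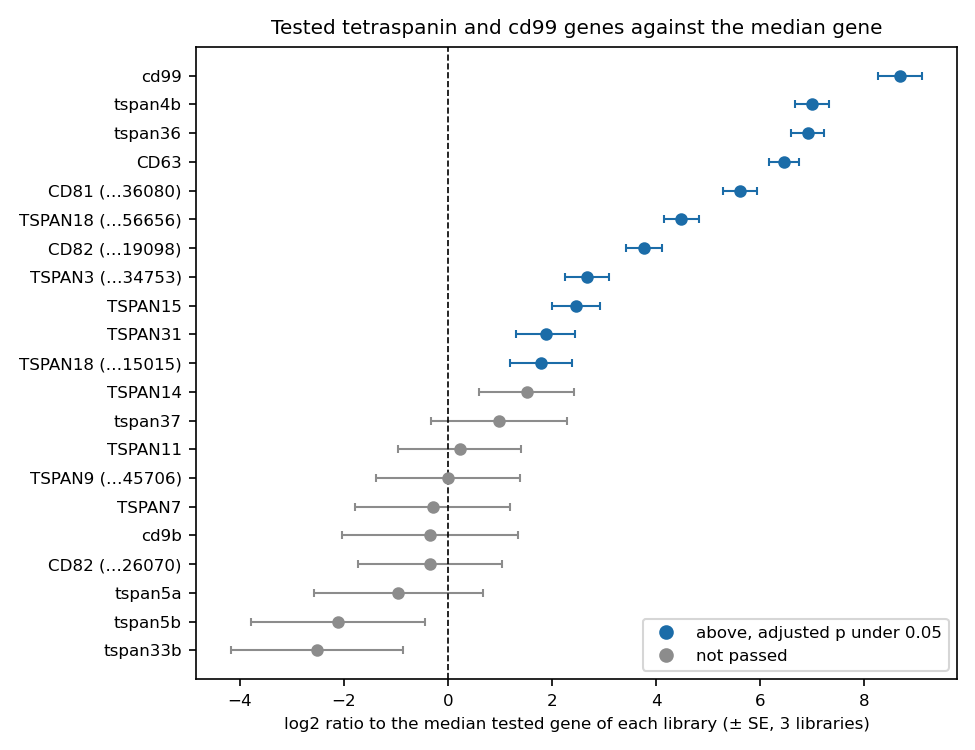
The log2 ratio of reads to the median tested gene for the 21 tested genes, with the standard error of the edgeR model fitted to 3 libraries. The 11 blue points, from 1.79 for a TSPAN18 row to 8.69 for cd99, stood above the median gene, and the grey points did not pass.

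The reads were concentrated in a few genes. Together the 41 rows took 1.05%, 1.16% and 0.862% of all reads in replicates 1, 2 and 3. The 5 genes with the most reads, cd99, tspan4b, tspan36, CD63 and one CD81 row, held 90.1%, 95.5% and 88.2% of that sum.

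The gene cd99 (ENSDARG00000051975) had 160876, 238480 and 92485 reads, or 4259, 8519 and 2249 CPM. It ranked 21st, 15th and 27th by reads among all rows of the 3 libraries. Every library was high, with replicate 2 at 3.79 times replicate 3. The mean was 5009 CPM ± 3202 (SD, n = 3), and the log2 ratio to the median gene was 8.69 ± 0.43 (SE, edgeR adjusted p = 4.68e-15). Without replicate 2 the mean was 3254 CPM and the log2 ratio 8.01. Its share of the reads of all 41 genes was 42.6%, 58.7% and 31.3%. The related gene CD99L2 (ENSDARG00000056722), whose human counterpart also acts in leukocyte passage through endothelium, had 2, 0 and 1 reads, at or under the floor in each library.

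Among tetraspanins, tspan4b and tspan36 took the most reads. For tspan4b (ENSDARG00000070391) the levels were 1573, 2029 and 1083 CPM, with a mean of 1562 ± 473 and a log2 ratio of 7.0 ± 0.32 (SE, n = 3, edgeR adjusted p = 9.16e-14). TSPAN4 is a component of migrasomes, vesicles that migrating cells leave on their retraction fibres, and is used to mark them in zebrafish embryos. The row TSPAN4 (ENSDARG00000089354), under the human-style name, had 0, 1 and 0 reads.

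For tspan36 (ENSDARG00000024540), a gene known from pigment cells of zebrafish, the levels were 1652, 1787 and 999 CPM. Its mean was 1479 CPM ± 421 and its log2 ratio 6.92 ± 0.32 (SE, n = 3, edgeR adjusted p = 1.06e-13). As with cd99 and tspan4b, replicate 2 was highest and replicate 3 lowest. The 13 rows of the pigment cell list summed to 0.159, 0.214 and 18.4 CPM, with 11 of them at 3 reads or fewer in every library. The value in replicate 3 came from TYRP1, a melanin synthesis enzyme, with 0, 1 and 758 reads. The part of these markers' cells in the level of tspan36 was not tested. TSPAN10 (ENSDARG00000044767), known in mammals as a tetraspanin of pigmented cells, had 0, 0 and 11 reads.

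The endosomal tetraspanin gene CD63 (ENSDARG00000025147) was found at 1170, 848 and 1250 CPM, a mean of 1090 ± 213 (SD, n = 3). Its log2 ratio was 6.46 ± 0.30 (SE, edgeR adjusted p = 2.76e-13), and its highest library was 1.47 times its lowest. CD81 (ENSDARG00000036080), a tetraspanin carried by many cell types in mammals, was found at 361, 679 and 763 CPM. Its mean was 601 CPM ± 212 and its log2 ratio 5.61 ± 0.32 (SE, n = 3, edgeR adjusted p = 8.15e-12). Both genes were highest in replicate 3, where cd99, tspan4b and tspan36 were lowest. The second CD81 row (ENSDARG00000022437) had 0 reads in all 3 libraries.

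Rows named CD82 and TSPAN18 came in pairs, and both rows of each pair were detected in every library. CD82 (also KAI1) restrains cell migration and metastasis in mammals, and TSPAN18 is an endothelial tetraspanin that in human cells acts on the calcium channel ORAI1. In the RefSeq annotation of the GRCz12tu assembly, cd82a lies next to tspan18a and cd82b next to tspan18b, with 0 protein-coding genes between them. The deposited IDs share human-style names and could not be assigned to the a or b copies. The first TSPAN18 row (ENSDARG00000056656) stood at 410, 157 and 269 CPM, with replicate 1 at 2.61 times replicate 2. Its mean was 279 ± 127 CPM and its log2 ratio 4.48 ± 0.34 (SE, n = 3, edgeR adjusted p = 7.27e-10). The second TSPAN18 row (ENSDARG00000015015) was even over the libraries, at 40.6, 37.9 and 49.7 CPM. Its log2 ratio was 1.79 ± 0.59 (SE, n = 3, edgeR adjusted p = 0.0142). Leaving out replicate 1 ended the call, at 1.84 and an adjusted p of 0.0577 by edgeR, as did leaving out replicate 3, at 1.69 and 0.229. It ended as well when only genes with 10 reads in all 3 libraries were tested, which raised the median gene, at 0.60.

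The first CD82 row (ENSDARG00000019098) stood at 198, 181 and 121 CPM, a mean of 167 ± 40.6 (SD, n = 3) and a log2 ratio of 3.76 ± 0.35 (SE, edgeR adjusted p = 1.82e-08). The second (ENSDARG00000026070) had 329, 226 and 509 reads, or 8.71, 8.07 and 12.4 CPM, and did not pass, at -0.35 ± 1.39 (SE, edgeR adjusted p = 0.950). The row with more reads held 95.8%, 95.7% and 90.7% of the CD82 reads and 91.0%, 80.5% and 84.4% of the TSPAN18 reads. Reads that could belong to either copy were not checked.

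Of the tetraspanins that escort Adam10, known as the TspanC8 group, 7 rows were present and 5 were tested. TSPAN15 (ENSDARG00000039455), which in mammals directs ADAM10 to N-cadherin, was found at 69.3, 47.1 and 87.9 CPM. It stood above the median gene at a log2 ratio of 2.45 ± 0.46 (SE, n = 3, edgeR adjusted p = 9.83e-05), and its libraries lay within 1.87 times of each other. The other tested members of the group did not pass and were all close to absent from replicate 2. TSPAN14 (ENSDARG00000055938), which regulates ADAM10 in human endothelial cells, had 2434, 19 and 1751 reads, or 64.4, 0.679 and 42.6 CPM. Its log2 ratio was 1.51 ± 0.92 (SE, edgeR adjusted p = 0.223), and without replicate 2 it was called, at 2.08 and an adjusted p of 0.0104. Reads of tspan5a (ENSDARG00000086033) were 448, 6 and 307, those of tspan5b (ENSDARG00000070449) 279, 3 and 50, and those of tspan33b (ENSDARG00000042189) 196, 1 and 55. The levels of tspan5b were 7.39, 0.107 and 1.22 CPM, with 84.8% of their sum in replicate 1. The group's last rows were TSPAN33 (ENSDARG00000004497) with 1, 0 and 0 reads and TSPAN10. The protease gene adam10a itself was found at 190, 461 and 154 CPM, above the median gene (log2 ratio of 4.47, edgeR adjusted p = 2.33e-09), with a mean of 268 CPM that was 172 without replicate 2.

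The remaining called genes were TSPAN3 and TSPAN31. TSPAN3 (ENSDARG00000034753) was found at 83.7, 61.1 and 91.6 CPM, a log2 ratio of 2.67 ± 0.43 (SE, n = 3, edgeR adjusted p = 1.79e-05). Its other row (ENSDARG00000053559) had 0, 2 and 0 reads. TSPAN31 (ENSDARG00000074554), first found in human as a gene amplified in sarcomas, was found at 38.5, 38.5 and 59.4 CPM. Its log2 ratio was 1.88 ± 0.57 (SE, n = 3, edgeR adjusted p = 0.00767). Leaving out replicate 3 ended the call, at 1.67 and an adjusted p of 0.257 by edgeR, and it ended when 10 reads in all 3 libraries were required, at 0.70.

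Near the median gene, even and uneven genes stood side by side. TSPAN11 (ENSDARG00000001781) had 466, 413 and 663 reads, or 12.3, 14.8 and 16.1 CPM, the smallest relative spread of the 21 genes, and did not pass (log2 ratio of 0.23 ± 1.18, SE, edgeR adjusted p = 0.958). By contrast, tspan37 (ENSDARG00000095090) had 0, 1083 and 1378 reads, or 0, 38.7 and 33.5 CPM, and did not pass (0.98 ± 1.31, edgeR adjusted p = 0.756). TSPAN9 (ENSDARG00000045706), a platelet tetraspanin in mammals, had 696, 9 and 788 reads, or 18.4, 0.322 and 19.2 CPM, and did not pass (edgeR adjusted p = 1). Its other row (ENSDARG00000025299) had 0, 0 and 6 reads. TSPAN7 (ENSDARG00000008407), which acts at synapses in mammals, had 877, 8 and 304 reads and did not pass (log2 ratio of -0.29 ± 1.49, edgeR adjusted p = 0.959). The thrombocyte list, with all 10 rows at 3 reads or fewer in each library, and the neuron list, at 71.8, 229 and 107 CPM in sum, stand beside these last 2 genes. Their part in these levels was not tested.

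Low values in a single library were common in these data. In 6 of the 21 tested genes (TSPAN14, TSPAN9, TSPAN7, tspan5a, tspan5b and tspan33b) replicate 2 lay more than 10 times below both other libraries. That is 28.6%, beside 25.2% of all tested genes, so the share was near that of genes in general. The same was seen in replicate 1 for tspan37 alone and in replicate 3 for cd9b alone, beside 13.4% and 5.08% of all tested genes. With 20, 760 and 2 reads, cd9b was low in replicate 1 as well. The comparison by 10 times was chosen after the values were seen. Replicate 2 also had the fewest genes with 10 reads, and its library was the lowest for 12 of the 21 genes (41.3% of all tested genes).

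**Figure D3:**
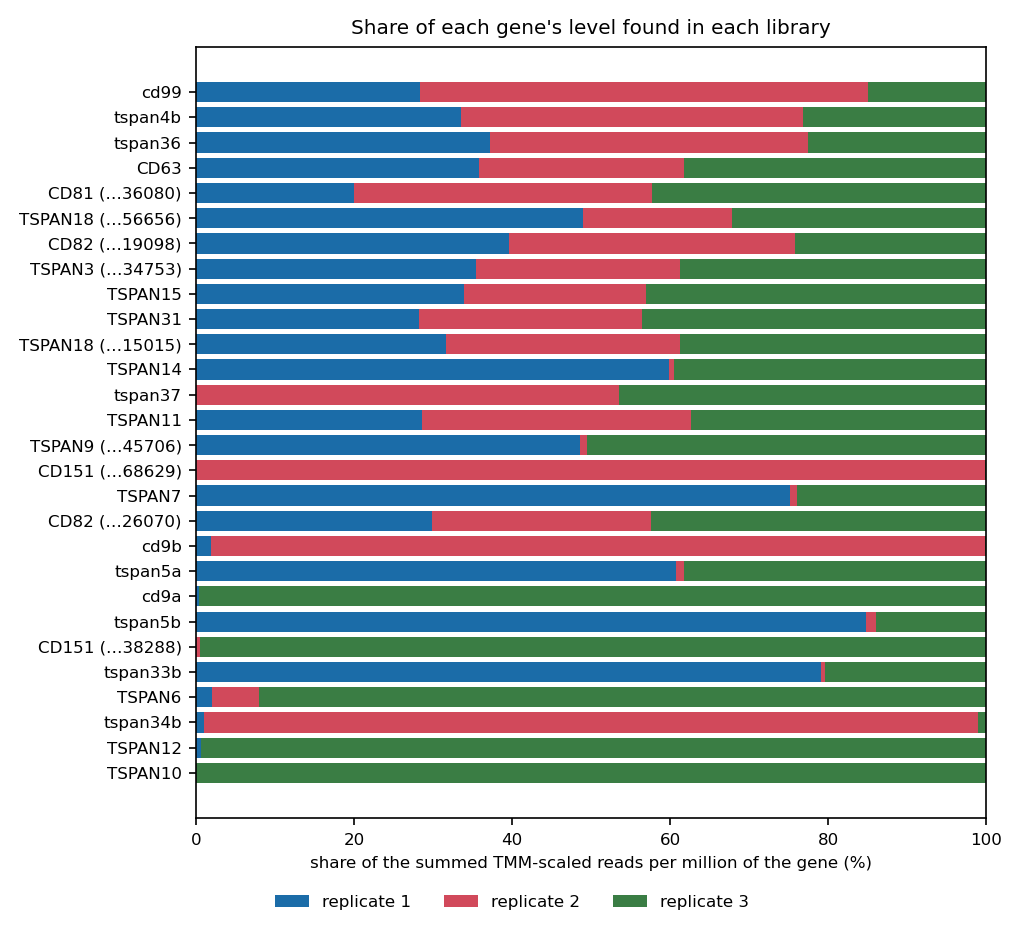
Stacked bars of the share of each gene's summed TMM-scaled CPM that came from replicates 1, 2 and 3, for the 28 genes with at least 10 reads in some library, ordered by mean level. Genes from cd99 down to TSPAN18 draw on all 3 libraries, while further down bars of 1 colour (cd9b at 97.9% in replicate 2) or bars lacking replicate 2 become frequent.

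Both cd9 copies and both CD151 rows were each found mainly in 1 library, and the libraries differed between the copies. Such unevenness was common in these libraries. Of the 27 listed genes with at least 100 reads in some library, 13 (48.1%) had under 10 in another. Over all rows, 9378 reached 100 reads in some library, and 57.3% of these had under 10 in another. CD9 and CD151 are integrin partners, and CD151 binds the integrins that attach to laminin. Reads of cd9b (ENSDARG00000016691) were 20, 760 and 2, or 0.529, 27.1 and 0.0486 CPM, so that its mean of 9.24 CPM was 0.289 without replicate 2. It was tested and did not pass (log2 ratio of -0.34 ± 1.70, edgeR adjusted p = 0.958). Reads of cd9a (ENSDARG00000005842) were 1, 0 and 380. One CD151 row (ENSDARG00000068629) had 0, 900 and 2 reads, and the other (ENSDARG00000038288) had 0, 1 and 350.

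Others with 10 reads in 1 library only were TSPAN6 (ENSDARG00000015759) with 4, 9 and 205, TSPAN12 (ENSDARG00000032389) with 1, 0 and 170 and tspan34b (ENSDARG00000025757) with 2, 141 and 2 reads. TSPAN12 is the coreceptor through which mouse retinal vessels respond to Norrin by Frizzled 4. Of the 41 genes, 7 reached 10 reads in 1 library only, as did 4579 of the 26269 rows with a symbol. Of the 7 genes, 5 did so in replicate 3 and 2 in replicate 2. The same split over all rows was not counted, so it is not read as a trait of these genes. Replicate 3 was also the library with the most genes at 10 reads and the highest sum of the macrophage and microglia list, at 1085, 1122 and 3424 CPM over 18 rows, of which 5 were at 3 reads or fewer in every library. Most of the sum in replicate 3 came from apoeb at 2367, cd74a at 547 and cd74b at 388 CPM. Of that list's defining genes, ptprc had 8, 1 and 237 reads, csf1ra 0, 3 and 102, and P2RY12 0 in each. Others were also found in replicate 2, where SPI1 was highest with 7, 1500 and 14 reads, one MPEG1 row (ENSDARG00000055290) had 2, 1663 and 2028, and c1qc had 0, 620 and 511. The part of such cells in the values of replicates 2 and 3 was not tested.

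Some tetraspanins known from other cells of the brain or blood were at or near 0. The B cell tetraspanin gene cd37 (ENSDARG00000075515) had 0 reads in every library, which allows up to 3 reads in each, while the lymphocyte list summed to 26.1, 75.2 and 46.0 CPM over 9 rows, 1 of them at 3 reads or fewer. TSPAN2 (ENSDARG00000003754), a tetraspanin of oligodendrocytes in mammals, and tspan2b (ENSDARG00000059202) had 0 reads as well, although the myelin gene mbpa had 21711, 59025 and 28106. Also at 0 were TSPAN1 (ENSDARG00000052027), tspan34a (ENSDARG00000103951) and one TSPAN13 row (ENSDARG00000070479), the other (ENSDARG00000068883) having 0, 5 and 0 reads. Of the 13 name pairs among the 41 rows, 3 had both copies tested (CD82, TSPAN18 and tspan5), 6 had 1 and 4 had none.

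By median, genes with few reads varied most between libraries. Of the 21 genes, the 4 at 1000 CPM or more had coefficients of variation from 0.195 for CD63 to 0.639 for cd99, beside a median of 0.435 over 74 genes. CD81 and the first TSPAN18 row, from 200 to 1000 CPM, had 0.353 and 0.455, beside a median of 0.313 over 313 genes. The 3 from 50 to 200 CPM ran from 0.201 to 0.30, beside a median of 0.420 over 996 genes. From 10 to 50 CPM the 7 genes had a median of 0.844 and ran from 0.133 to 1.14 (0.863 over 2948 genes). Under 10 CPM the 5 had a median of 1.23, beside 1.01 over 2780 genes. They ran from 0.239 for the second CD82 row to 1.68 for cd9b.

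**Figure D4:**
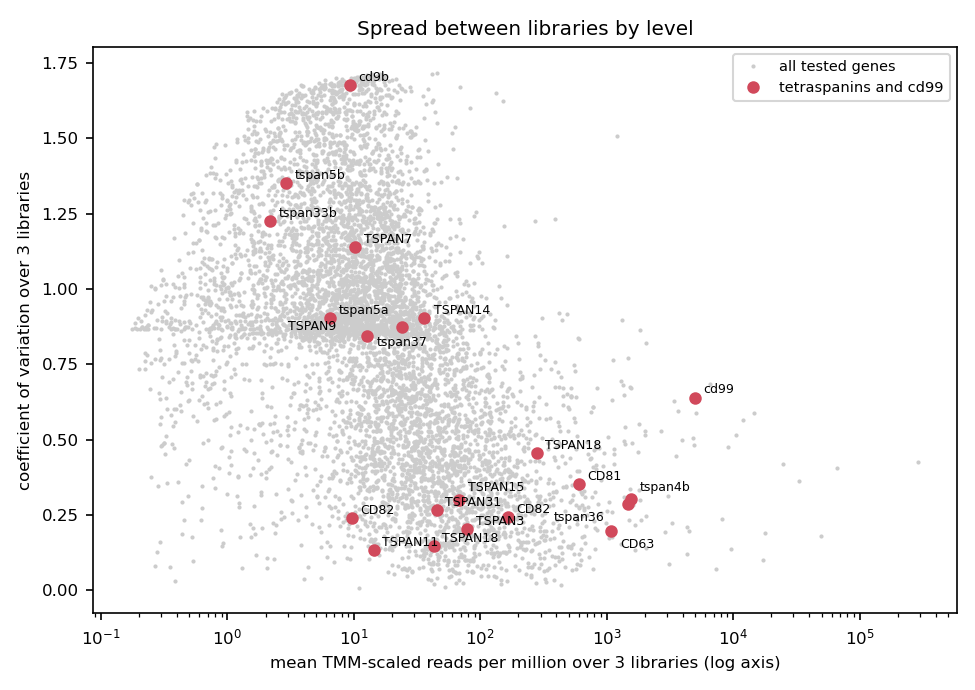
Coefficient of variation over the 3 libraries against mean TMM-scaled CPM on a log axis, with a grey point for each of the 7111 tested genes and a red point for each of the 21 tested tetraspanin and cd99 genes. The red points run from 0.133 for TSPAN11 to 1.68 for cd9b. Among those of high level cd99 stands out at 5009 CPM and 0.639, and TSPAN14 lies at 35.9 CPM and 0.903.

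Genes that work with tetraspanins were read from lists chosen for their known links. Beside the calls in these lists, 23.4% of all tested genes stood above the median gene and 1.21% below it. Of 22 rows for endosome and exosome machinery, 4 had at most 3 reads in any library and 12 passed the filter. Their median log2 ratio was 0.93, and 5 were called above the median gene and 0 below it. The highest was sdc4, a syndecan whose cargo is sorted into exosomes, at 1598, 1515 and 1938 CPM (log2 ratio of 7.09, edgeR adjusted p = 3.73e-14). It was followed by CHMP2A, part of the complex that cuts vesicles into endosomes, at 665, 1057 and 420 CPM. Next was the syntenin gene sdcbp2, at 150.3, 122 and 187 CPM, while the other syntenin gene, sdcbp, had 0 reads in each library. STAM and VPS4B were also called. STAM did not pass once replicate 2 was left out (log2 ratio of 1.65), nor VPS4B once replicate 1 was (1.01).

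Of 10 rows for lysosome membrane proteins, the compartment of Cd63, 2 had at most 3 reads in any library and 8 passed the filter. The test called 5 of them above the median gene and 0 below, and their median log2 ratio was 1.78. LAMP2 was found at 281, 240.4 and 279 CPM, lamp1b at 176, 82.4 and 171 CPM, and the cholesterol exporter gene NPC1 at 29.8, 105 and 26.4 CPM, which did not pass once replicate 2 was left out (log2 ratio of 1.15). The other called genes, scarb2a and LAPTM4A, lost their calls without replicate 3, at 1.27 and 1.46, and LAPTM4A also without replicate 1, at 1.42.

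Of 25 rows for leukocyte transmigration, the process that CD99 serves in humans, 8 had at most 3 reads in any library and 13 passed the filter. Again 5 were called above the median gene and 0 below, at a median log2 ratio of 1.70. The adhesion gene icam3 was found at 99.8, 198 and 131 CPM, JAM3, a junction protein, at 160, 155 and 51.2 CPM, and pecam1b, an endothelial contact protein that acts with CD99 in mammals, at 117, 2.36 and 88.4 CPM. The call of pecam1b was lost without replicate 1 (log2 ratio of 1.84, mean of 45.4 CPM in place of 69.2). That of CAV1, at 1.75 with all 3 libraries, was lost without replicate 1 or 3 (1.45 and 1.88). That of ALCAM, at 1.70 with all 3, was lost with any 1 library left out (1.25 to 1.89). Both ratios rose without replicate 3, and that of ALCAM also without replicate 1. In those fits the call was lost on the adjusted p-value and not through a lower level.

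Other partners were low or uneven. Of 16 integrin rows, 5 were tested and ITGA5, the fibronectin receptor subunit, stood above the median gene, with 145, 3397 and 545 reads. It did not pass without replicate 2, at a log2 ratio of -0.57. ITGA4 and ITGAV did not pass, with 521, 1446 and 603 and with 4, 537 and 1298 reads. The laminin receptor subunit gene itga6b had 9, 3 and 1328 reads. Among the ITGB1 rows, the highest (ENSDARG00000071863) had 58, 1 and 1 reads. The rest were among 8 integrin rows with at most 3 reads in any library. Of 11 rows for Adam proteases and the Notch receptors they cleave, 5 were tested and adam10a alone passed, while ADAM17 had 11, 9 and 1 reads. The 2 NOTCH1 rows were uneven in different libraries, with 166, 543 and 17 reads for ENSDARG00000052094 and 105, 5 and 898 for ENSDARG00000103554. Of the 7 rows around Frizzled 4, 4 were tested and did not pass by edgeR, with 0 reads of FZD4 and of ndp in all 3 libraries. Immunoglobulin partners (ptgfrna, ptgfrnb, igsf8 and IGSF3) had at most 3 reads in any library. Of 6 rows for palmitoyl transferases, which attach lipids to tetraspanins, 3 were tested and did not pass by edgeR.

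**Figure D5:**
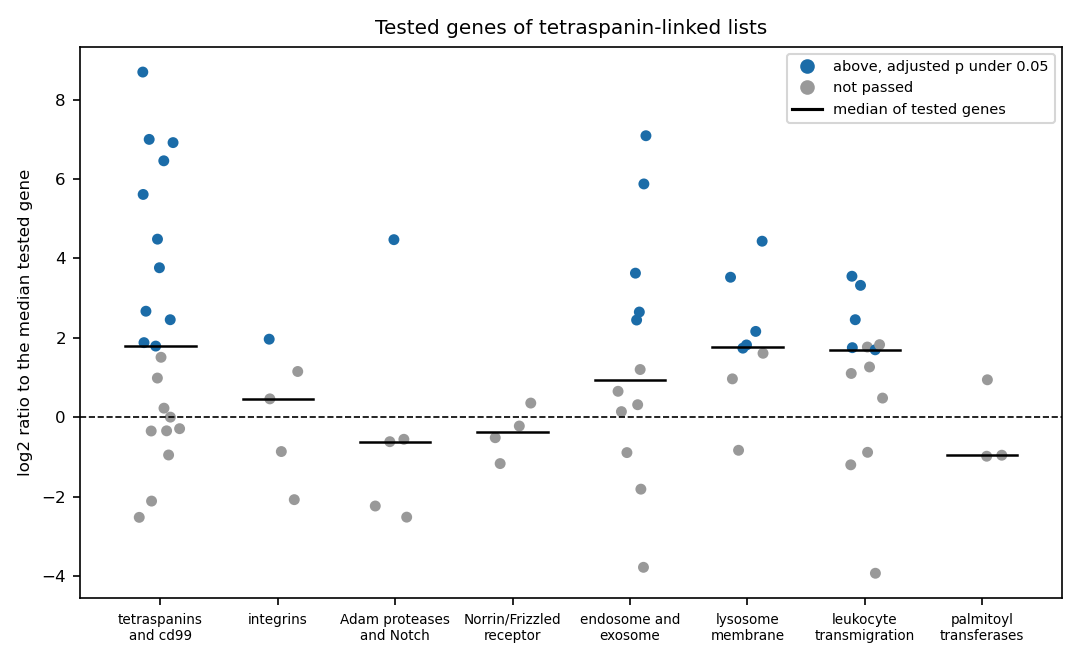
The log2 ratio of reads to the median tested gene for tested tetraspanins and cd99 and for tested genes of 7 linked lists, with blue points for genes above the median gene, grey points for those that did not pass and a line at each list's median (jitter is for display). The tetraspanins reach 8.69 with cd99, the endosome and exosome list 7.09 with sdc4, and no point in any of these lists was called below the median gene.

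The labelled cell type was read from its markers. Of 11 lymphatic rows 10 were tested and 7 called above the median gene, and of 12 pan-endothelial rows 10 and 7. All 7 lymphatic calls were kept with any 1 library left out. They included lyve1b at 656, 521 and 639 CPM, stab2 at 626, 560 and 660 CPM and FLT4 at 190, 287 and 249 CPM. The pan-endothelial calls of EGFL7, clec14a, ramp2 and MYCT1 were kept as well. Not all defining genes were high: PROX1, a transcription factor of lymphatic identity, had 614, 1213 and 1 reads and did not pass, cdh5 had 0, 3 and 0, and pecam1a had 0 in each. Among the pan-endothelial calls, those of FLI1 and pecam1b were lost without replicate 1, and that of ERG was lost without replicate 2, its mean of 93.8 CPM falling to 33.7. The summed level of the lymphatic list was 5861, 7520 and 5786 CPM, most of it from MRC1, and that of the pan-endothelial list 1841, 1540.2 and 1474 CPM. Markers of other cells were also present, with the oligodendrocyte list at 677, 2391 and 783 CPM, pericytes and smooth muscle at 389, 970.2 and 228, radial glia at 50.7, 339 and 74.4 and fibroblasts at 69.6, 89.9 and 158 CPM. Replicate 2, where cd99 was highest, was also highest for the lymphatic, oligodendrocyte, pericyte, radial glia, neuron, epithelial and lymphocyte lists. The other marker lists, among them the pan-endothelial, macrophage and fibroblast lists, were highest in another library. The part of any of these cells in the level of cd99 was not tested. Most of the oligodendrocyte sum came from mbpa, at 575, 2109 and 683 CPM. The test called mbpa, plp1b (96.1, 99.95 and 74.9 CPM) and mbpb above the median gene. With 1 library left out mbpa and plp1b kept their calls, while mbpb lost its call without replicate 2. Other genes of that list were near 0: olig1 had 0 reads in each library, OLIG2 1, 0 and 0, cldnk 3, 0 and 0 and SOX10 35, 1 and 1. The pericyte list was likewise split, with RGS5 at 5590, 18235 and 765 reads and one TAGLN row (ENSDARG00000033466) at 8487, 7724 and 5372, both called above the median gene, and PDGFRB at 1, 0 and 0. In the radial glia list one FABP7 row (ENSDARG00000007697) was called above, with 1740, 8493 and 2947 reads, and GFAP had 0, 1 and 0. In the neuron list GNG3 was called above, with 1607, 3855 and 2578 reads, and ELAVL3 had 1, 0 and 1. The epithelial list summed to 795, 1126 and 915 CPM from keratins 8 and 18, with epcam at 3, 9 and 15 reads, and the erythrocyte list to at most 2.72 CPM.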

How the data were processed

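Bulk RNA was measured in 3 libraries of sorted muLECs. The authors deposited raw counts, whole-number reads per Ensembl gene ID, in columns named pvLEC whose replicate numbers gave their samples. GRCz10, R 3.2.2 and bcl2fastq appear in the submitters' processing notes, with aligner, counter and strand setting not given in the sources used here. A deposited YuGene table was not used.

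Symbols came from a table of gene IDs. Members and lists were chosen with earlier results of these data known. No gene lengths entered the analysis: counts were not divided by length and ratios between members were not computed. Proteins and promoters are not printed.

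CPM used edgeR 4.0.16 TMM factors in R 4.3.3. Genes with 10 reads in 2 libraries were kept. Their log2 ratios came from edgeR's quasi-likelihood test, applied to the intercept with each library's median count over kept genes as offset, and p-values were Benjamini-Hochberg adjusted over 7111 genes (threshold 0.05). Because glmQLFTest refuses an intercept-only design, its calculation was coded step by step. It was run on counts simulated with dispersions estimated from these data, but was not compared with glmQLFTest itself. DESeq2 1.42.0, limma-trend 3.58.1 on log2(CPM + 1), other filters, scalings, a common reference and leaving out each library were alternatives.

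Values per library were printed for both Cd99 genes, the 15 tested members of highest mean CPM, called members and up to 6 with over 80% of their level in 1 library, and, of each list, up to 3 genes. Members and list genes named beyond this were chosen after their values were seen. List symbols matched a stem with an optional a or b.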

Additional observations from a re-analysis of the deposited data

How the results depend on the processing

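The 11 calls above the median gene, of 21 members tested, numbered 11 again with DESeq2, limma-trend and, added after seeing the data, a common reference. They also numbered 11 with DESeq2 size factors and with no filter. Both of these settings and the DESeq2 fit kept the offset of the main fit. They could hardly move the ratios and do not test the scaling (cd99 was at 8.69 in the main fit and with DESeq2). The count was 9 of 14 where 10 reads in all 3 libraries were required and 9 to 12 with 1 library left out. Members below the median gene numbered 0, but 2 with limma-trend (tspan5b and tspan33b) and 6 of 34 with no filter. Over all genes, 1663 of 7111 tested stood above, and 1042 of 4108 with 10 reads in all 3 libraries. With 1 library left out, 1526 to 1571 of 7111 did. The 86 of 7111 genes below became 0 with DESeq2, 1011 with limma-trend and 0 with any 1 library left out, each of 7111. With no filter, which kept the median of the filtered genes as reference, 5808 of 18455 stood below. With 10 reads in all 3 libraries, 219 of 4108 did. Members that were not called changed sign: tspan37 with limma-trend (-0.26), TSPAN11 with 10 reads in all 3 libraries (-0.98), TSPAN9 (0.57) and TSPAN7 (0.28) without replicate 2, and cd9b without replicate 1 (0.21) or 3 (0.24). With 1 library left out these 3 genes ran from -0.42 to 0.57, from -1.72 to 0.28 and from -5.45 to 0.24. The cause was not tested. The log2 ratio of cd99 lay between 7.38 and 9.06 over the 9 alternatives. Plain library size and DESeq2 size factors moved the mean CPM of each tested member by less than 1 SD. That limit is wide and says little about the scaling. Leaving out replicate 2 took the mean of cd9b from 9.24 to 0.289 CPM, which was also within its SD of 15.5. No paired analysis was possible because the libraries form a single group. Depth limits genes with few reads: a gene at 0 reads may hold up to 3 in each library.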

Other observations

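Tetraspanin relatives outside the naming rule were also read: of 7 rows for uroplakin 1, peripherin 2 and Rom1 genes, 5 had 0 reads, rom1a had 0, 2 and 1, and upk1a had 2, 619 and 0 reads.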
